A study of Mus musculus with 24 samples.

Results

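A set of 120 genes was close to silent in wild-type growing mouse oocytes and well expressed in wild-type fully grown oocytes. The members were chosen from 16940 genes by a mean below 1 RPKM over the 4 wild-type growing libraries and a mean of 5 RPKM or more over the 4 wild-type fully grown libraries. RPKM is the number of reads on a gene, scaled to its transcript length and to the size of the library. The 120 members were 0.708% of the genes, and the choice used wild-type values only. The oocytes came from B6/129 females of 2 genotypes. Conditional knockouts (KO) were Snf2h(fl/fl) and carried ZP3-Cre, a transgene whose promoter drives the recombinase in growing oocytes. Wild types (WT) were Snf2h(fl/fl) without Cre, so the effect of Cre itself and that of losing Snf2h cannot be told apart. Both genotypes were collected as growing oocytes 40 to 45 µm across (GO1) or 50 to 55 µm across (GO2) and as fully grown oocytes above 70 µm, taken either without hormone (nFGO) or after hormone (FGO). Libraries were made from pools of 20 oocytes, 2 for each stage and genotype (8 groups). Nothing in the labels ties the 2 to separate animals, so the p-values may rest on technical spread alone. The 4 nFGO libraries are labelled polyA RNA and the other 12 total RNA.

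Snf2h, encoded by Smarca5, is the ATPase of the ISWI chromatin remodellers, which slide and space nucleosomes. During growth an oocyte builds its store of maternal RNA, and transcription falls silent when it reaches full size. Most well known oocyte products are already transcribed early in growth.

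Smarca5 was at 0.701 to 2.06 RPKM in the 8 KO libraries and at 13.9 to 48.7 RPKM in the 8 WT libraries. WT FGO replicate 2 held the 13.9 and stood apart from the other WT libraries for this gene. The RPKM values of a library summed to between 832384 and 1011538, and 12613 to 12919 genes reached 1 RPKM. The depth of each library is unknown, since the table holds RPKM. All 10 oocyte markers checked, among them Gdf9, Zp3 and Ddx4, were at 1 RPKM or more in both genotypes. An RPKM is a share of the library, so neither RNA per oocyte nor the number of oocytes in a pool that expressed a gene could be measured.

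The regions upstream of 4 members are shown because these genes carry the contrast described below. Lmo3, Robo2 and L3mbtl3 stayed far under the WT level in KO fully grown oocytes, while Gfra1 reached it. Each is the 250 bases before a RefSeq transcript start (GRCm38.p6), 5′ to 3′ on the gene's strand, here the minus strand in each case. They lie at chr6:138581969-138582218 (Lmo3), chr16:74411826-74412075 (Robo2), chr10:26375220-26375469 (L3mbtl3) and chr19:58455399-58455648 (Gfra1). The start used was the gene start of the deposited table for Lmo3 and Robo2, and lay 752 bases from it for L3mbtl3 and 511 bases from it for Gfra1. Capitals mark the letters CAGCTG (an E-box) or GGGCGG (a GC box, on either strand).
Lmo3: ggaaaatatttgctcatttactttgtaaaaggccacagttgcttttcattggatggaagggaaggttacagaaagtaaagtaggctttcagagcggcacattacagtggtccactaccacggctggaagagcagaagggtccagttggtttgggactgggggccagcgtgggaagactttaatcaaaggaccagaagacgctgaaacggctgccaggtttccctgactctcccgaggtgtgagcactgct
Robo2: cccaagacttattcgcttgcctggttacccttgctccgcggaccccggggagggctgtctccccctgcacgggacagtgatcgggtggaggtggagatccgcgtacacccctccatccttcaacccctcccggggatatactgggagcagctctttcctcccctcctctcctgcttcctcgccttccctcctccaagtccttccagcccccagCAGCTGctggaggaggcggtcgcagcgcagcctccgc
L3mbtl3: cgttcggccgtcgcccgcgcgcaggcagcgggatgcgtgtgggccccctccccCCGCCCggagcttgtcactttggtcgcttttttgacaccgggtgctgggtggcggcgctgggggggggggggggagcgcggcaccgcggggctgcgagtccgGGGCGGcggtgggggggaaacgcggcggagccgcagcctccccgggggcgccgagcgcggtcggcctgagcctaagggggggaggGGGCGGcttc
Gfra1: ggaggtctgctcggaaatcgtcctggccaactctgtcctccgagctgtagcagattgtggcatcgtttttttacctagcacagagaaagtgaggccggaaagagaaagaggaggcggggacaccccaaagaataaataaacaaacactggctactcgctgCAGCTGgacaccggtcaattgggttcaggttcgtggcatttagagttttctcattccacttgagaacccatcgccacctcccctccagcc
The 4 windows differed widely in CG dinucleotides, with 34 for L3mbtl3, 14 for Robo2, 10 for Gfra1 and 6 for Lmo3. RefSeq promoters were found for 70 of the 120 members (95 promoters), to set beside all 32851 promoters of the same length. The TATA box letters TATAAA were in 6.32% of member promoters and in 12.4% of all promoters. CAGCTG was in 18.9% of member promoters and in 13% of all, and the other E-box searched, CACGTG, was in 8.42% and 6.02%. TAATTA, a homeobox core, was in 4.21% of member promoters and in 4.84% of all. GGGCGG was in 26.3% of member promoters and in 32.7% of all, and the median CG count was 4 against 6. These shares describe letters and were not tested.

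The members were modest in level. Their mean in the 4 WT fully grown libraries ran from 5.02 to 69.3 RPKM with a median of 8.23, and 73 were under 10 RPKM. In every one of the 4 WT fully grown libraries 77 members were at 5 RPKM or more and 112 at 1 RPKM or more. Just inside the growing threshold stood Olfr1104, Gm47514 and Trpa1 at 0.9997, 0.9989 and 0.9975 RPKM, and just outside Asb12, Ebi3 and Muc20 at 1.0001, 1.0046 and 1.0101 RPKM. Just inside the fully grown threshold stood Gm17767, Olfr1104 and 4922502D21Rik at 5.02, 5.04 and 5.04 RPKM, and just outside Gm20619, Cd209f and Prdm1 at 4.99, 4.95 and 4.93 RPKM. No gene of 10 lists of known oocyte genes was a member. These lists cover transcription factors, maternal effect, zona, translation, meiosis, imprint, calcium, histone, multigene family and two-cell-stage genes. Of their 245 genes in the table, 226 were already at 1 RPKM or more in WT growing oocytes. Members were 0.708% of all genes, and at that share few or none of the 245 would be members.

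Many members are little known transcripts. Predicted or clone-named genes made up 45.0% of the members, against 13.9% of the other 8850 genes at 5 RPKM or more in WT fully grown oocytes. Among members with a known biotype 19.8% were long noncoding RNAs and 70.8% protein coding, against 5.22% and 89.7% of those other genes. The members lay on 20 chromosomes with at most 11 on any, and only 2 were within 100000 bases of each other. These were the neighbours Reg3g and Reg3d on chromosome 6, both of which encode secreted C-type lectins. For 35 members another gene of the table overlaps the gene's span, and without strand in the counting its reads cannot be told apart from the member's.

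For 9 members the authors' deposited counts did not show the increase seen in RPKM. Their mean count was less than 2 times higher in WT fully grown than in WT growing oocytes. They were Gm25745, Gm15536, Gm23201, Mir682 and Gm22953, each under 200 bases long, and BC049715, Gm33051, Gm28036 and Gm45062. Gm25745, the highest member by RPKM, had 109, 0, 12.7 and 0 RPKM in the KO nFGO and FGO libraries, against 95.8, 36.3, 81.6 and 63.6 RPKM in the WT ones. Gm15536 and Gm23201, also among the 10 highest, were uneven too. Gm15536 was at 0 RPKM in both KO FGO libraries and in 1 of the 2 WT nFGO libraries, and Gm23201 was at 0 RPKM in every fully grown library but WT FGO replicate 2. The other 111 members are called count-backed below, and counts are given for both sets where they differ. Vmn1r139, a vomeronasal receptor gene, was count-backed but uneven by stage. It had 36.9 and 20.2 RPKM in KO nFGO and 83.8 and 100.2 RPKM in WT nFGO, and at most 0.0904 RPKM in any FGO library. Its mean count in the authors' deposited table was 733.5 in KO nFGO, 2454 in WT nFGO, 1579 in KO FGO and 1854 in WT FGO, so its FGO values by RPKM are doubtful.

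**Figure D1:**
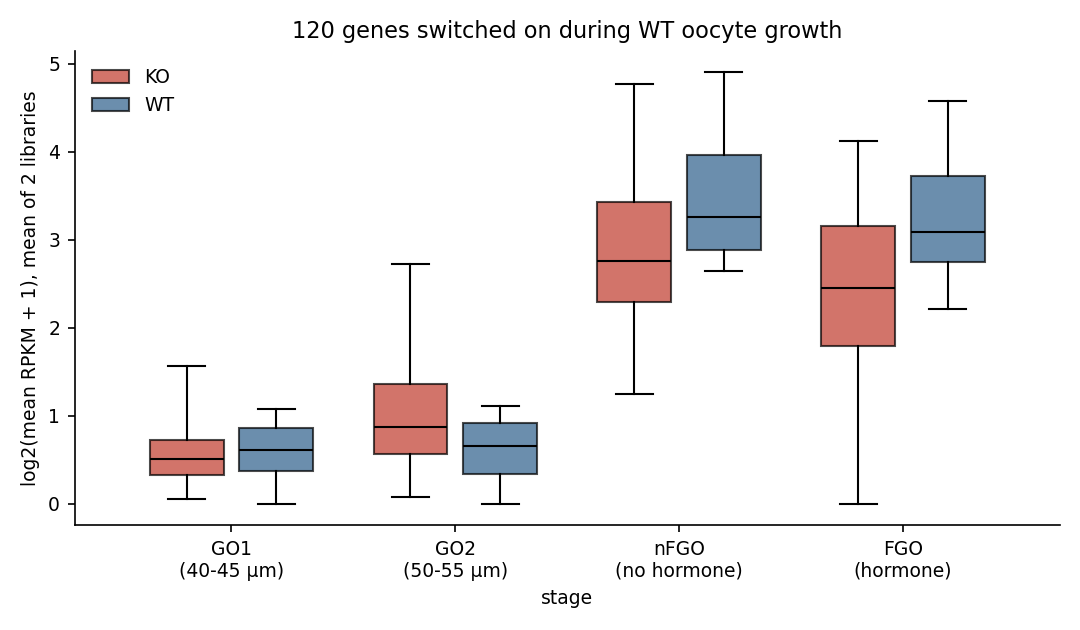
Mean level of the 120 genes in each group of 2 libraries, as log2(mean RPKM + 1) on the y axis by stage on the x axis, KO in red and WT in blue. Boxes give the median and quartiles and whiskers the 5th and 95th percentiles. The WT boxes stay low at GO1 and GO2 by choice of the genes. KO boxes rise at nFGO and FGO but lie lower than the WT boxes.

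Most of these genes also rose during growth in KO oocytes, though only 64 reached a mean of 5 RPKM in KO fully grown oocytes. The median member had 0.426 RPKM at GO1, 0.826 at GO2, 5.78 at nFGO and 4.49 at FGO in KO, beside 0.533, 0.575, 8.53 and 7.47 RPKM in WT at the same stages. The KO libraries had no part in the choice of members, so growth within KO could be tested. With limma on log2(RPKM + 1) and Benjamini-Hochberg adjustment over 14557 genes, 106 of 120 members were higher in KO fully grown than in KO growing oocytes. Over all genes tested 32.7% were higher. The median log2 change of the members was 1.80, against 0.03 over all genes, and 102 of the 106 kept the call with each of the 8 KO libraries left out in turn. No member was lower by adjusted p, where 28.7% of all genes tested were called lower. At an unadjusted p under 0.05 by limma no member was lower either. At nFGO alone 105 members were higher than in KO growing oocytes, and at FGO alone 100, where 30.0% and 28.2% of all genes were. At FGO alone 1 member was lower, where 24.8% of all genes were. It was Gm15536 (-4.32, limma adjusted p = 0.00605), which counts did not back.

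The 14 members not called in KO growth fell into 2 kinds. Of these, 8 were among the 9 that counts did not back. The other 6 were 4922502D21Rik, Prelid2, 2700069I18Rik, Gm4224, Gm49500 and Spn-ps. Gm4224 had 0.224, 0.143, 0.262 and 0 RPKM in the KO nFGO and FGO libraries, against 5.62, 7.33, 5.76 and 3.92 RPKM in the WT ones. 2700069I18Rik, a noncoding transcript overlapping the zinc finger gene Zfhx4, had 0.0952, 0, 0.127 and 0 RPKM in those KO libraries, against 4.57, 6.81, 3.11 and 6.47 RPKM in WT. Spn-ps, a pseudogene, had 0.141, 0.361, 0.754 and 0.326 RPKM in KO, against 5.85, 10.1, 5.05 and 8.03 RPKM in WT. For these 3 genes every KO fully grown library stayed below 1 RPKM and every WT one was above 3, so KO did not reach even the level at which the genes count as expressed here. Their log2 changes in KO growth were -0.09 (Gm4224), -0.08 (2700069I18Rik) and 0.13 (Spn-ps), with standard errors of 0.15, 0.18 and 0.18. Gm4224 and Spn-ps were already low in KO growing oocytes, with means of 0.2305 and 0.2635 RPKM against 0.789 and 0.985 RPKM in WT. Spn-ps was called lower in KO at GO2 (limma adjusted p = 0.0486). Gm30564 was also below 1 RPKM in every KO fully grown library (0.753, 0.143, 0.839 and 0.678 RPKM at nFGO and FGO), though called higher in KO growth.

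**Figure D2:**
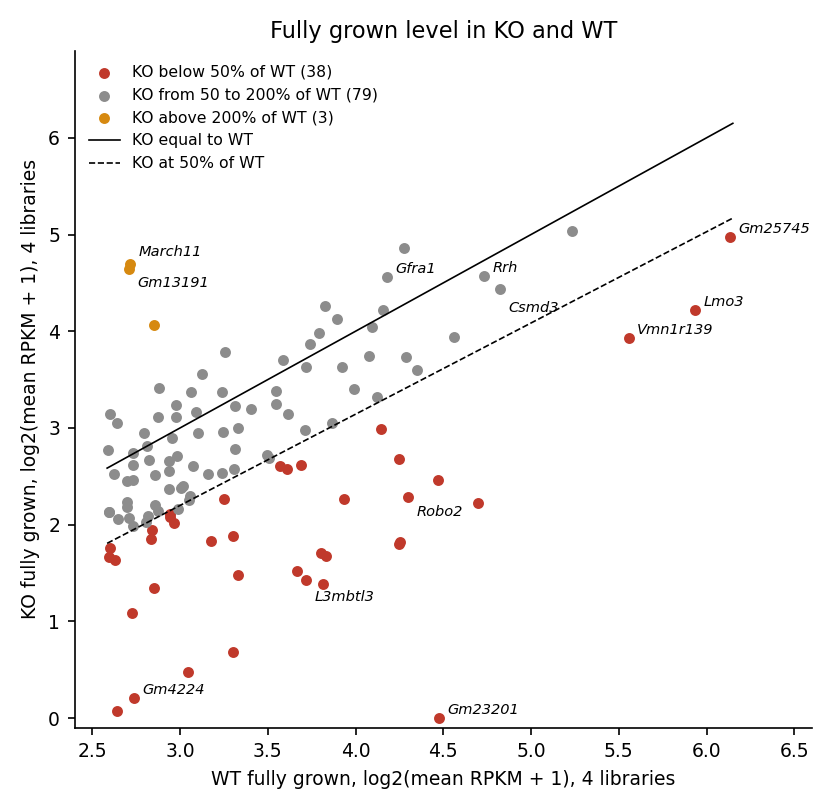
Mean level in the 4 KO fully grown libraries (y axis) against the 4 WT fully grown libraries (x axis), each as log2(mean RPKM + 1), 1 point per gene. The 38 red genes are below 50% of WT, the 79 grey ones from 50 to 200% and the 3 orange ones above 200%. More points lie under the solid line of equal level than over it.

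The KO fully grown mean was below the WT one for 94 of 120 members, and 50 members were called lower at nFGO or FGO. The share of all genes called lower at either stage was not counted; shares for each stage follow below. The KO mean was a median of 63.1% of the WT one, with quartiles of 44.1 and 92.7%. It was below 50% for 38 members, from 50 to 200% for 79 and above 200% for 3. Among the 8850 other genes at 5 RPKM or more in WT fully grown oocytes the median was 96.0%, 5040 genes were below WT and 335 genes, 3.79%, were below 50%. Since a high WT value helped to choose the members, part of such a shortfall comes with the choice. By library the median was 71.9 and 70.8% for the KO nFGO libraries and 55.0 and 56.3% for the KO FGO ones, alike within a stage and lower at FGO. In KO fully grown oocytes 64 members reached 5 RPKM, 51 lay from 1 to under 5 and 5 stayed under 1 RPKM.

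At nFGO 37 members were lower and 5 higher in KO than in WT, where 9.4% and 6.77% of all 14557 genes were. At FGO 44 were lower and 3 higher, where 10.2% and 7.67% of all genes were. The median log2 difference was -0.42 at nFGO and -0.58 at FGO, against -0.01 over all genes at both. With 1 library left out the lower calls numbered 23 to 30 at nFGO and 30 to 36 at FGO, the fewest at nFGO (23) being without KO nFGO replicate 1. At FGO the count was 30 without WT FGO replicate 2, the library with the low Smarca5 value. All 4 KO fully grown libraries lay below all 4 WT ones for 42 members, where 13.9% of all genes did so. They lay above all 4 WT ones for 7 members, for which no share over all genes is given here. The WT values in these counts also chose the members, so the counts are a description.

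To remove the WT libraries compared from the choice of genes, the rule was also applied with either fully grown stage alone. The 135 genes chosen from WT growing and WT nFGO libraries held 114 of the members. At FGO, 45 of them (33.3%) were lower and 5 higher in KO, with a median log2 difference of -0.50. The 107 genes chosen from WT growing and WT FGO libraries were compared at nFGO. There 34 (31.8%) were lower and 4 higher, with a median of -0.40. Both shares were above those over all genes given above.

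Markers of other ovarian cells differed between genotypes, in either direction. Of 8 theca and stroma markers, 4 were in the table, and they summed to 0.597 to 1.31 RPKM in KO fully grown and 2.27 to 3.58 RPKM in WT fully grown libraries. Most of that difference was Dcn, at 0 to 0.257 RPKM in the KO and 1.76 to 2.86 RPKM in the WT libraries. Of 14 granulosa and cumulus markers, 7 were in the table, with sums of 290 to 406 RPKM in KO and 434 to 546 RPKM in WT fully grown libraries. Serpine2 made up most of each sum, at 227 to 354 RPKM in KO and 389 to 509 RPKM in WT. Cyp19a1, the aromatase gene, went the other way, with 32.5 to 42.8 RPKM in KO and 23.1 to 31.6 RPKM in WT, and so did Fshr, the FSH receptor gene, with 0.863 to 3.7 RPKM in KO and 0.185 to 0.596 RPKM in WT. For both genes every KO fully grown library was above every WT one. Inha was at 4.83 and 12.8 RPKM in KO nFGO and 0.564 and 2.83 RPKM in WT nFGO libraries. Of 7 blood and immune markers only Cd68 was in the table, at 2.36 to 4.71 RPKM in KO and 1.83 to 2.66 RPKM in WT fully grown libraries. Of 5 endothelial markers, Pecam1 and Tek were in the table and summed to 9.12 to 15.5 RPKM in KO and 11.5 to 19 RPKM in WT. The part of other cells in the member differences was not tested.

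The members were sorted by known role, by hand and after their values had been seen, so the groups below only order the description. The lower calls of each group are to be read beside the shares over all genes, 9.4% at nFGO and 10.2% at FGO. Of the 7 transcription and RNA regulators 5 were lower in KO at nFGO and 4 at FGO, and their median level was 44.8% of WT. Lmo3 encodes a LIM-only co-regulator of transcription and lies on chromosome 6, 138362918 to 138581968 (mm10, minus strand). It had 18.8 and 23 RPKM in KO nFGO and 16.9 and 11.8 RPKM in KO FGO, against 48.8 and 54.6 RPKM in WT nFGO and 63.6 and 73.7 RPKM in WT FGO. Every growing library was below 0.7 RPKM, so Lmo3 was switched on strongly in both genotypes, yet every KO fully grown library was below every WT one. The KO growth change was 3.77 ± 0.14 (log2 change ± SE, limma adjusted p = 3.78e-09), the largest of any member. The KO-WT difference was -1.27 ± 0.20 at nFGO (limma adjusted p = 0.0019) and -2.20 ± 0.20 at FGO (limma adjusted p = 4.95e-05).

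L3mbtl3, which encodes a reader of methylated lysines, lies on chromosome 10, 26274468 to 26375971. It had 1.24 and 2.52 RPKM in KO nFGO and 2.27 and 0.718 RPKM in KO FGO, against 17.9 and 13.4 RPKM in WT nFGO and 7.33 and 10.1 RPKM in WT FGO. The KO-WT difference was -2.56 ± 0.35 at nFGO and -2.02 ± 0.35 at FGO (limma adjusted p = 0.000741 and 0.00242). It was called higher in KO growth (0.82 ± 0.25, limma adjusted p = 0.0116), a call lost without KO FGO replicate 1 or KO nFGO replicate 2. The Krüppel-like zinc finger gene Glis3 reached 44.2% of the WT level, and Msi2, encoding an RNA-binding protein, 44.8%. Both were lower at both stages, but their calls were each lost with 2 or more of the 4 compared libraries left out in turn. Esrrg, encoding an orphan nuclear receptor, went the other way in level, with 155% of WT, and was not called at either fully grown stage.

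Neural adhesion and guidance genes showed the lowest median, 30.5% of WT over 7 genes, with 4 lower at nFGO and 5 at FGO. Robo2 encodes a receptor for Slit guidance proteins (chromosome 16, 73891839 to 74411825). It had 4.1 and 7.08 RPKM in KO nFGO and 1.89 and 2.4 RPKM in KO FGO, against 12.9 and 16.2 RPKM in WT nFGO and 18.9 and 26.8 RPKM in WT FGO. The FGO difference was -2.91 ± 0.24 (limma adjusted p = 3.26e-05). The nFGO difference was -1.27 ± 0.24 (limma adjusted p = 0.00517), a call lost without KO nFGO replicate 1. Epha3, encoding an ephrin receptor, had a narrow spread, with 2.88 and 2.73 RPKM in KO nFGO and 2.54 and 2.65 RPKM in KO FGO, against 8.35, 9.05, 9.62 and 8.37 RPKM in the WT nFGO and FGO libraries. The contactin gene Cntn6 was at 30.1% and Nyap2, a neuronal phosphoprotein gene, at 20.0% of WT. Csmd3, one of the highest members, came nearer, with means of 20.7 RPKM in KO and 27.3 RPKM in WT fully grown libraries. At nFGO it had 26.6 and 23.5 RPKM in KO and 27.7 and 30.4 RPKM in WT. It was still called lower at FGO (-0.61 ± 0.19, limma adjusted p = 0.0452), with 15 and 17.7 RPKM in KO and 28.2 and 23 RPKM in WT. That call was lost without 1 or more of the compared libraries.

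**Figure D3:**
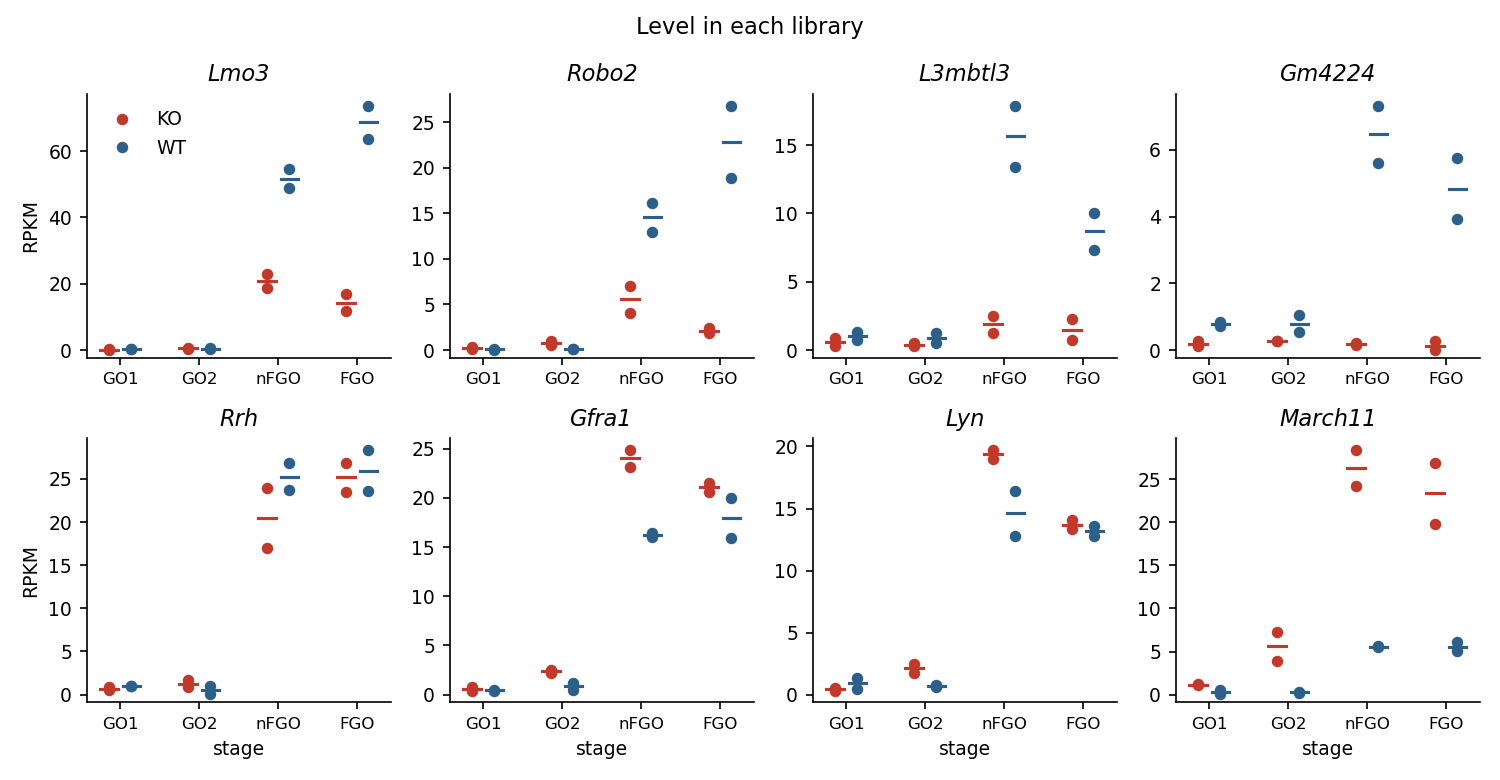
RPKM of 8 genes in every library (points) with the mean of each group of 2 (bars), by stage, KO in red left of WT in blue; each panel has its own y axis from 0. Lmo3, Robo2, L3mbtl3 and Gm4224 stay under WT at nFGO and FGO, Rrh, Gfra1 and Lyn reach it, and March11 lies above it at each of the 4 stages.

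Of 12 genes with roles in immune recognition and signalling, 6 were lower at nFGO and 6 at FGO, and the median was 52.3% of WT. Dapp1, which encodes an adaptor binding PI3-kinase lipids, had 5.14 and 4.76 RPKM in KO nFGO and 3.4 and 1.9 RPKM in KO FGO. The WT values were 16.7 and 17.9 RPKM at nFGO and 9.86 and 12.8 RPKM at FGO. Reg3g had 2.46 and 2.46 RPKM in KO nFGO and 1.74 and 2.11 RPKM in KO FGO, against 13, 19.1, 9.28 and 11.6 RPKM in the WT nFGO and FGO libraries. In both genes every KO fully grown library was below every WT one, and each call held with every compared library left out. Tlr3, the sensor of double-stranded RNA, reached 19.7% of WT, but its FGO call was lost with any 1 of the 4 FGO libraries left out. Lyn, a Src-family kinase gene, matched WT in level instead. It had 19.7 and 19 RPKM in KO nFGO and 14 and 13.3 RPKM in KO FGO, against 16.4 and 12.8 RPKM in WT nFGO and 12.8 and 13.6 RPKM in WT FGO.

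Ligands, receptors, channels and transporters came close to WT, at a median of 89.0% over 11 genes. At each stage 1 was lower (Vmn1r139 at nFGO and the growth factor gene Fgf10 at FGO), which is near the shares over all genes. Rrh, encoding a retinal opsin, had 23.9 and 17 RPKM in KO nFGO and 23.5 and 26.8 RPKM in KO FGO, against 23.7, 26.8, 23.6 and 28.3 RPKM in the WT nFGO and FGO libraries. The KO-WT difference of Rrh was -0.31 ± 0.28 at nFGO and -0.04 ± 0.28 at FGO, and the KO and WT libraries overlapped at both stages. Gfra1, the GDNF co-receptor gene on chromosome 19 (58235604 to 58455909), had 23.2 and 24.9 RPKM in KO nFGO and 20.6 and 21.5 RPKM in KO FGO. Its WT values were 16.4 and 16.1 RPKM at nFGO and 16 and 20 RPKM at FGO, lower than KO in each pair of groups but not called. The glucose transporter gene Slc2a12 was at 110% of WT.

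The 8 metabolic and processing enzymes had a median of 81.2% of WT. Only Sult2b1, a sulfotransferase gene, was lower at nFGO, and only Man1a, a mannosidase gene, at FGO; each call was lost without 1 or more of the compared libraries. The adenylate kinase gene Ak5 was at 95% and the glucuronosyltransferase gene Ugt2b38 at 110% of WT. Sgo2b, a relative of the shugoshin that protects meiotic cohesin, had 4.78 and 6.02 RPKM in KO nFGO and 5.84 and 5.2 RPKM in KO FGO, against 9.66, 9.56, 10.9 and 11.4 RPKM in WT. Its differences of -0.74 at nFGO and -0.90 at FGO were called, but each call was lost with 3 or more of the 4 compared libraries left out in turn.

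Among 54 predicted or clone-named members, 9 were lower at nFGO and 15 at FGO, and the median was 65.6% of WT. The lowest, besides Gm4224, 2700069I18Rik and Gm23201, were Gm30564, Gm14164, Gm7525, Gm13041, Gm48721 and Gm48902, at 6.80 to 16.0% of WT. Gm48721, on chromosome 10, had 4.05 and 4.08 RPKM in KO nFGO and 5.26 and 1.29 RPKM in KO FGO, against 24.4, 33.3, 16 and 25.9 RPKM in the WT nFGO and FGO libraries. Prr32, a proline-rich protein gene among the 18 other named members, was at 21.4% of WT. Those 18 had a median of 57.3%, with 10 lower at each stage.

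**Figure D4:**
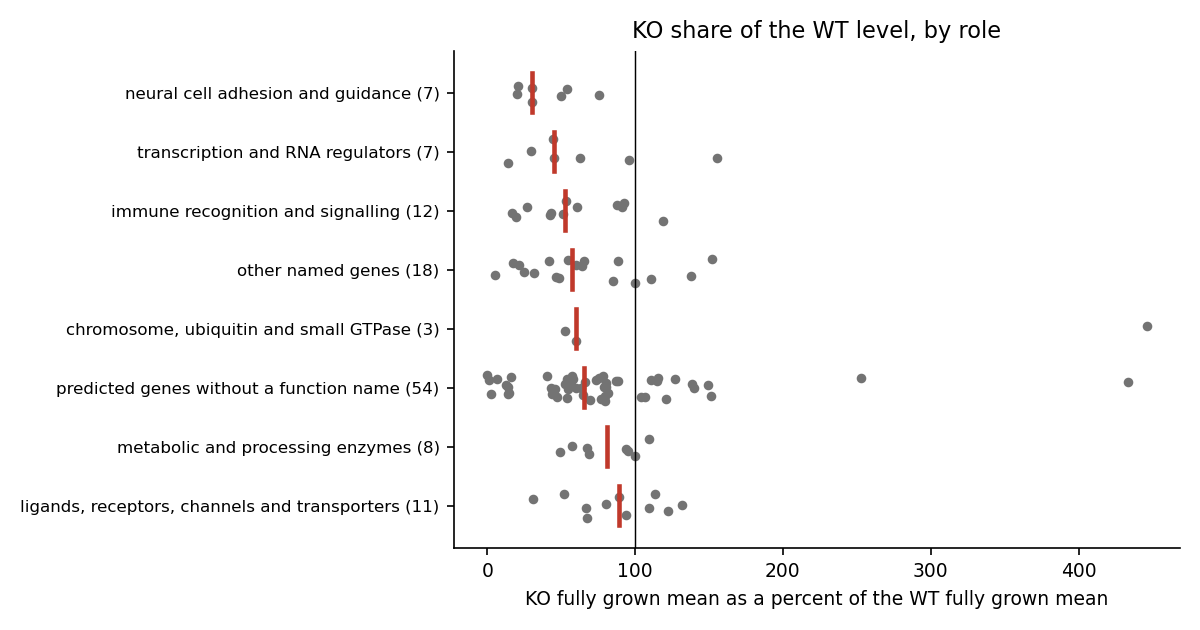
KO fully grown mean as a percent of the WT fully grown mean (x axis) for each gene (grey points, spread vertically for view), by role, with the number of genes in brackets and the median of each role as a red bar. Medians run from 30.5% for neural adhesion and guidance to 89.0% for ligands, receptors, channels and transporters. The black line marks 100%.

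At both nFGO and FGO, 31 members were lower and 2 higher in KO, and none was called in opposite directions. Another 64 were called at neither. Shares of all genes called at both or at neither stage were not counted, so these counts only describe the members. Of the 31, 16 kept both calls with each of the 8 compared libraries left out, among them Lmo3, L3mbtl3, Epha3, Nyap2, Dapp1, Reg3g, Prr32, Gm4224 and Spn-ps. The KO and WT libraries differ between these stages, and the KO-WT difference had the same sign at both for 96 of 120 members. The share of all genes with the same sign at both was not counted either. Across the 111 count-backed members the differences at nFGO and FGO had r = 0.77, and across all 120 members r = 0.61, beside 0.66 over all genes tested. These points share libraries between genes, so r is a description. No member's KO effect differed between FGO and nFGO by the interaction test (limma). By adjusted p, 0.0206% of all genes tested were called with a higher and 0.0412% with a lower KO effect at FGO. At an unadjusted p under 0.05 by limma, 20 members differed, a count for which no share over all genes was taken.

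**Figure D5:**
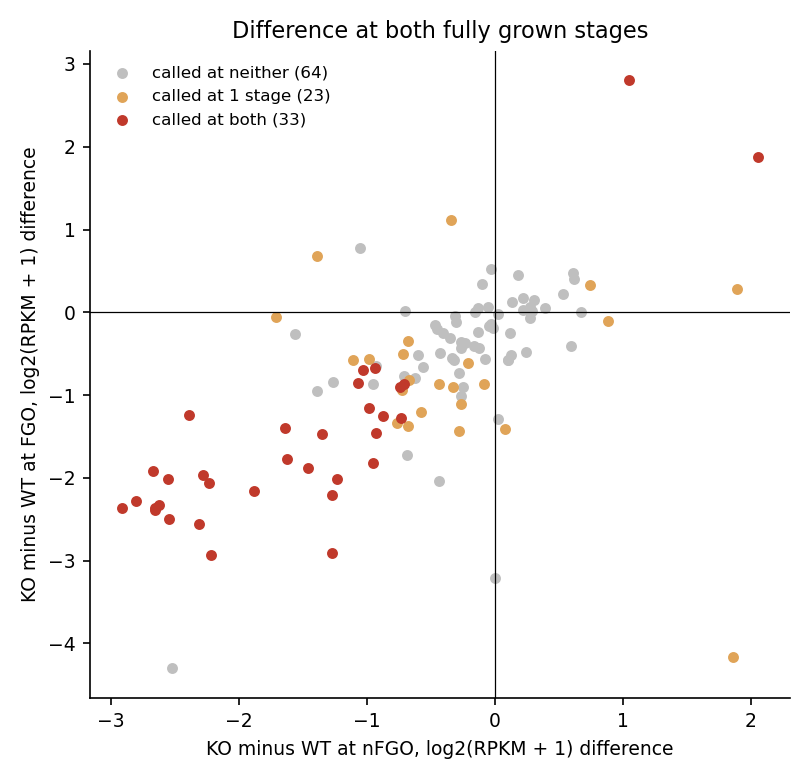
KO minus WT at FGO (y axis) against KO minus WT at nFGO (x axis), both as differences of mean log2(RPKM + 1), 1 point per gene. Red genes were called at both stages (33), orange at 1 stage (23) and grey at neither (64). The red genes lie in the lower left, except 2 in the upper right, March11 and Gm13191.

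The 2 members higher at both stages stood far above WT. March11 encodes a membrane-bound ubiquitin ligase (chromosome 15, 26309048 to 26409576). It had 28.4 and 24.3 RPKM in KO nFGO and 19.8 and 26.9 RPKM in KO FGO, against 5.6 and 5.49 RPKM in WT nFGO and 5.04 and 6.13 RPKM in WT FGO. The KO-WT difference was 2.06 ± 0.25 at nFGO and 1.88 ± 0.25 at FGO (limma adjusted p = 0.000342 and 0.000508). Gm13191, on chromosome 2, had 17.5, 15, 38.5 and 25.3 RPKM in the KO nFGO and FGO libraries and 5.71, 9.23, 3.26 and 4 RPKM in the WT ones. Its nFGO call was lost without either KO nFGO library or without WT nFGO replicate 1.

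Few members differed between oocytes with and without hormone. In KO 1 was higher and 6 lower at FGO than at nFGO, where 1.86% and 2.37% of all genes were. In WT 1 was higher (Gm5373) and 3 were lower, where 0.811% and 1.88% of all genes were. Leaving out a library brought the lower calls to 2 in KO (KO FGO replicate 1, KO FGO replicate 2 or KO nFGO replicate 2), and the Gm5373 call was lost without any 1 of the 4 WT libraries. Vmn1r139, Gm33051 and Gm28036, whose RPKM and counts disagree, were among the lower ones in KO. Hormone and the library label cannot be told apart here. Glis1, a zinc finger gene related to Glis3, was the 1 higher in KO. It had 26 and 24.1 RPKM in KO FGO and 6.87 and 4.97 RPKM in KO nFGO, against 16 and 14.5 RPKM in WT FGO and 17.1 and 16.8 RPKM in WT nFGO. KO was thus below WT without hormone and above it after hormone in every library, but the interaction was not called (2.07 ± 0.36, limma adjusted p = 0.125).

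Some members were already higher in KO at GO2. There 17 were higher and 1 lower in KO than in WT, where 2.96% and 4.68% of all genes were, and the median log2 difference was 0.22. The WT GO2 libraries helped to choose the members. Among 150 genes chosen from WT GO1 and WT fully grown libraries only, 17 (11.3%) were also higher and 1 lower. At GO1, 1 member, Smim9, was higher in KO and none lower (2.16% and 4.47% of all genes), with 8 higher and 11 lower at an unadjusted p under 0.05 by limma. The GO2 count depended on single libraries: leaving out KO GO2 replicate 2 or WT GO2 replicate 2 left 4 higher, leaving out KO GO2 replicate 1 left 8, and leaving out WT GO2 replicate 1 left 11. March11, Gm13191, Gm34333 and Gm47514 kept their call each time. The granulosa markers went in either direction at this stage. Cyp19a1 was higher, at 11.3 and 15.8 RPKM in KO GO2 and 5.42 and 2.6 RPKM in WT GO2. At GO1 Cyp19a1 was at 2.69 and 4.48 RPKM in KO and 3.52 and 3.16 RPKM in WT. Serpine2, Kitl and Inhba were also higher in both KO GO2 libraries than in both WT ones. Fshr was lower, at 1.57 and 1.13 RPKM in KO GO2 and 1.89 and 1.58 RPKM in WT GO2. Inha was lower too, at 0.296 and 0.115 RPKM in KO GO2 and 1.2 and 0.772 RPKM in WT GO2, and Nr5a2 overlapped. Dcn was at 11.5 RPKM in WT GO2 replicate 1 and at 0.233 RPKM or less in the other growing libraries. The part of other cells in the GO2 differences was not tested.

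Those 4 genes had the clearest early values. March11 was at 3.88 and 7.3 RPKM in KO GO2 and 0.203 and 0.311 RPKM in WT GO2. Gm34333 was at 5.76 and 5.63 RPKM in KO GO2 and 0.738 and 0.776 RPKM in WT GO2. Gm47514 was at 5.02 and 6.77 RPKM in KO GO2 and 1.25 and 0.959 RPKM in WT GO2, and by nFGO it had 38.1 and 41.8 RPKM in KO and 36.8 and 37.5 RPKM in WT. In all 3 genes both KO libraries were several RPKM above both WT libraries at GO2. Of the 17 genes, 4 were called higher and 2 lower in KO at nFGO or FGO, and the rest were called at neither stage. Shares of all genes called at either stage were not counted, so these counts only describe the 17 genes.

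Within KO, 21 members were higher at GO2 than at GO1, where 5.41% of all genes were, and in WT 2 were, where 3.17% of all genes were. None was lower in either genotype, where 4.09% (KO) and 4.38% (WT) of all genes were (at an unadjusted p under 0.05 by limma, 40 higher and 0 lower in KO and 9 higher and 1 lower in WT). Without KO GO2 replicate 2 the KO count was 6, and without KO GO1 replicate 1 it was 8. The rule kept the mean of the WT growing libraries below 1 RPKM and so limited any increase in WT, so the 2 genotypes are not compared by these counts. At GO2 50 members were at 1 RPKM or more in KO and 20 in WT, and at GO1 the numbers were 13 and 14. The rule limited these WT numbers too, so they are not a comparison of the genotypes. The difference of the KO effects at GO2 and GO1 was called for 6 members, all with the larger effect at GO2, where 1.84% of all genes were. This test uses the WT growing values that chose the members, so its count is a description.

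The same rule applied to the KO libraries chose 80 genes. Of these 35 were members, which is 29.2% of the members and 43.75% of the KO genes. Another 29 members reached 5 RPKM in KO fully grown oocytes but were at 1 RPKM or more in KO growing ones. A low level in KO fully grown oocytes and a higher level in KO growing oocytes thus both kept members out of the KO set.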

How the data were processed

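RNA-seq libraries were single-end, 100 bases, made from 20 pooled oocytes each with amplified cDNA and transposase fragmentation, per the labels' protocols. The deposited table held RPKM per gene and library, made by the authors. The submitters' processing notes name, for the authors' steps, the build mm10, DESeq 1.34.1, Cuffnorm, HISAT2 2.1.0 and Trim Galore 0.4.5, beside deepTools 3.0.2 and Cufflinks 2.2.1. Which tool made which column is not given in the sources used here. The table also held, per the file headers, each group's mean normalised count (a signal averaged by the authors over replicates), its log2 fold change and p-value. The mean counts were used only to back members, and the authors' log2 fold changes and p-values in no test.

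The table had 18060 lines for 16975 gene IDs; 35 IDs with 2 sets of nFGO values were left out. Genes reaching 1 RPKM in 2 or more of the 16 libraries (14557, all 120 members among them) were fitted with limma 3.58.1 in R 4.3.3 on log2(RPKM + 1), 1 mean per group, variance trend, 8 residual degrees of freedom. A pseudocount of 1 understates changes of genes near 1 RPKM. P-values were adjusted by Benjamini-Hochberg over all genes tested, called under 0.05. Shares over all genes refer to these calls, and none was taken at an unadjusted p. The procedure was checked on simulated data. Members, gene lists and roles were chosen with earlier results of these data known. Genes are named if among the 10 highest in WT fully grown oocytes, the 10 lowest in KO share among members lower at both stages, the 3 nearest each threshold, or the 5 with the largest or smallest KO growth change. The rule also asked for the 10 highest KO shares among members called the same way at both stages, but only the 2 higher at both were taken. Robo2, Cntn6, Epha3, Nyap2, Dapp1, Reg3g, Tlr3, Lyn, Glis1, Glis3, Msi2, Esrrg, Slc2a12, Ak5, Ugt2b38, Sgo2b and the other genes outside this rule were chosen after their values were seen. Alternatives were other pseudocounts, filters, scalings, fits, member thresholds, the replicate block and leaving out each library. Depth is unknown, so no counting interval is given. Promoters came from RefSeq (GRCm38.p6). The 8 ATAC-seq samples were not analysed here.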

Additional observations from a re-analysis of the deposited data

Results flagged for a closer look

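Of the 120 genes, 6 had a KO effect that differed between GO2 and GO1 by the interaction test (limma, adjusted over all genes tested), all with a larger KO-WT difference at GO2. The difference of the log2 effects was 1.97 for Gm47514, 1.71 for Gm34333, 1.6 for March11, 1.6 for 9330175E14Rik, 1.59 for Gm44939 and 1.27 for Gm49764, with adjusted p-values from 0.0108 (Gm47514) to 0.0366 (Gm49764). Both KO GO2 libraries were above both WT GO2 libraries for each of these genes, with 2.63 and 3.44 RPKM in KO and 0.734 and 0.566 RPKM in WT for 9330175E14Rik, 2.39 and 2.23 RPKM in KO and 0.804 and 0.338 RPKM in WT for Gm44939, and 1.87 and 2.52 RPKM in KO and 0.375 and 0.395 RPKM in WT for Gm49764. The WT growing libraries in this test also chose the members by their low values, so the calls are a description and not independent of the choice. The number of such genes rested on single libraries. It was 0 without KO GO2 replicate 2, 1 without KO GO1 replicate 1, WT GO1 replicate 2 or WT GO2 replicate 2, 2 without KO GO2 replicate 1, WT GO1 replicate 1 or WT GO2 replicate 1, and 12 without KO GO1 replicate 2. Groups of 2 libraries are too small for a check of single outlying samples.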

How the results depend on the processing

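No called value changed sign under any alternative run. The count-backed members, the genes chosen without WT GO2 and the comparisons of growing oocytes (KO against WT at GO2, GO2 over GO1 in KO, GO2 less GO1 effect) were added after seeing the data. KO growth was called higher for 104 to 109 members with 1 KO library left out, and for 41 of 46 members chosen below 0.5 RPKM in WT growing and 41 of 47 chosen at 10 RPKM or more in WT fully grown oocytes. Lower calls at nFGO (37) were 21 with a pseudocount of 0.1, and 17 and 21 with those 2 choices of members. Lower calls at FGO (44) were 28 when only the groups compared were fitted, 28 with a pseudocount of 0.1, and 20 and 22 with those choices. With a library of the compared groups left out they were 23 to 30 at nFGO and 30 to 36 at FGO. In genes chosen without the stage compared, the lower calls at FGO (45) were 29 with only the groups compared, 29 with a pseudocount of 0.1 and 31 to 37 without a library. Those at nFGO (34) were 19 with a pseudocount of 0.1 and 20 to 28 without a library, the 20 being without KO nFGO replicate 1. Lower calls after hormone in KO (6) were 3 with only the groups compared, 17 with a pseudocount of 5 and 2 to 5 without a library, and in WT (3) 5 with a pseudocount of 5. The KO effects at FGO and nFGO differed for 1 member higher and 1 lower with a pseudocount of 5, and for 0 to 1 in each direction without a library, the 1 being without KO nFGO replicate 1 (higher) and WT nFGO replicate 1 (lower). Higher calls at GO2 (17) were 7 with only the groups compared, 8 with a pseudocount of 5 and 4 to 11 without a library. Those of KO GO2 over KO GO1 (21) were 2 with only the groups compared, 10 with a pseudocount of 5 and 6 to 22 without a library. The GO2 less GO1 effect (6) was called for 2 without a variance trend, 0 with only the groups compared, 3 with a pseudocount of 5 and 0 to 12 without a library. Over the 111 count-backed members, 105 were higher in KO growth (103 at nFGO alone), 37 lower at nFGO and 43 lower at FGO. Of them 16 were higher at GO2 in KO than in WT, and 4 in KO and 2 in WT were lower after hormone. The median KO share (63.1%) was 74.1% at nFGO alone, 64.0% over count-backed members and 59.4 to 67.7% without a library. Calls in the less common direction ranged from 1 to 9 higher at nFGO and from 0 to 7 higher at FGO. Fits of fewer libraries hold fewer degrees of freedom; the cause of the other shifts was not tested.

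The labels do not say whether replicate numbers pair the samples, and 2 libraries per group cannot settle it. Deviations of same-numbered KO and WT libraries correlated at -0.019 (GO2) to 0.096 (FGO). The replicate block gave 108 members higher in KO growth, 35 lower at nFGO, 39 lower at FGO, 10 higher at GO2 and 0 for the GO2 less GO1 effect. For single named genes 2643 results kept their side of the threshold, 253 lost and 30 gained a call. Depth is unknown, and low values near 1 RPKM limit every comparison of growing oocytes.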
